A study of Rattus norvegicus with 8 samples.

Results

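The genes of the neuropeptide Y (NPY), cholecystokinin (CCK) and tachykinin systems were followed in the medial thalamus of rats: the peptide genes Npy, Cck and Tac1 and the receptor genes Npy1r, Npy2r, Npy5r, Cckar, Cckbr, Tacr1 and Tacr3. These 10 genes were taken by name, as every probe whose gene name in the scanner files was one of the 10, out of 35561 distinct names on the array. They were covered by 11 of the 41012 probes, since Npy1r had a pair of probes, and by 56 of the 43379 spots. Of the 11 probes, 10 (for 9 genes) were bright enough to be tested, and the probe of Npy2r was not.

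The samples were medial thalamus from male Sprague-Dawley rats studied while conscious. In 4 rats the trachea was closed for 3 to 10 breaths at a time, with about 30 s to recover between trials, in a session on each of 10 days. The 4 surgical controls went through daily sessions with no occlusion, and all animals were killed by an overdose of anaesthetic within 10 min of the last session. The labels give no age and name no other treatment. Each animal's RNA (1 µg) was hybridised to 1 single-colour Agilent rat array, and the arrays lay on a pair of slides: occlusion 1 and 3 and control 1 and 4 on slide 1, and occlusion 2 and 4 and control 2 and 3 on slide 2. The question was which genes differ in expression in this region after conditioning with occlusions.

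NPY, CCK and the tachykinins are small peptides that neurons cut from larger precursors, store in dense-core vesicles and release beside a fast transmitter. NPY acts on receptors coupled to inhibitory G proteins and generally dampens transmitter release. CCK and the tachykinins, of which substance P from Tac1 is the best known, act on receptors coupled to phospholipase C and generally excite neurons. In the brain Npy is best known from inhibitory interneurons and the hypothalamus, Cck from cortical, hippocampal and thalamic neurons, and Tac1 from the striatum and the medial habenula, which borders the medial thalamus.

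The probes are shown because each level below is what 1 short stretch of transcript captured, and a receptor with a pair of probes was read at a pair of places. Each probe was 60 bases long, with a GC content between 35% and 60%. The sequences are those of the array design, 5′ to 3′, in lower case with no base singled out. The Npy1r dimmer probe and the Npy2r probe are given whole and the others listed by their first 30 bases. The probes of Cckar, Cckbr and Tacr3 are not printed.
Npy: ttccgacccatttcccttgttgtcgttgta
Npy1r brighter probe: tgagagcatttctaactcatactgcataga
Npy1r dimmer probe: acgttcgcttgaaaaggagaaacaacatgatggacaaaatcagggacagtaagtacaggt
Npy2r: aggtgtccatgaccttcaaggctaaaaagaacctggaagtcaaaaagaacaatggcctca
Npy5r: agtagatagctgatttatgttgtacctatg
Cck: ccatcgtagtgggccagcctctcggcgctg
Tac1: aaagcacagtgttgatggagttgtacaagt
Tacr1: ctataagaagttaaaggatccaccaatccg

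In the probe positions that the scanner files give (rat assembly rn3), Npy lay at chr4:78321255-78321314, Tac1 at chr4:32775851-32775909 and Tacr1 at chr4:117024532-117024591. The Npy1r probes lay at chr16:24747552-24747611 and chr16:24748867-24748926, with 1255 bases between them, and the Npy5r probe at chr16:24773050-24773109, 24123 bases from the nearer Npy1r probe. Cck lay at chr8:126512566-126512625, Cckbr at chr1:163262335-163262394, Cckar at chr14:62064651-62064710, Npy2r at chr2:150505979-150506038 and Tacr3 at chr2:232391513-232391572. Gene models of that assembly were not used here, and which exon a probe lies in is not given. The probes of Npy, Cck, Cckar, Tac1 and Tacr1 were each printed 10 times on every array, and the others once.

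A level below is the log2 of a probe's processed signal minus the 75th percentile of the same array, so that 0 is the brightness of that percentile and each step of 1 is a doubling. Probes differ in how brightly they hybridise, so levels are compared between arrays and not between genes. In whole tissue, fewer cells of a type and less RNA per cell cannot be told apart. The 75th percentile of the signal was 1439 to 2216 over the arrays, 65.0% to 71.6% of the spots were well above background, and 1.05% to 1.55% were saturated. All 7 relay neuron markers that could be read, of 9 listed, were well enough above background to be tested. The defining habenula marker Pou4f1 was not well above background on occlusion 3, control 3 and control 4.

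Across the 27159 probes tested, no probe differed between occlusion and control at an adjusted p below 0.05 (limma with Benjamini-Hochberg adjustment, smallest adjusted p 0.403), the share called being 0%. At an unadjusted p below 0.05 there were 3010 probes, or 11.1%. Of the 10 member probes, 0 passed the adjusted threshold and 2 had an unadjusted p below 0.05, the brighter Npy1r probe and Cck. Both were higher after occlusion as recorded, but Cck was saturated on 5 arrays, so its p rests on values that are lower limits. Among all probes 6.48% were higher and 4.61% lower at that unadjusted threshold. The differences of the member probes were above 0 for 4 and below 0 for 6, with a median of -0.40, beside a median of 0.02 over all probes (14567 higher, 12592 lower). The groups were separate for 0 of the 10 member probes and for 6.71% of all probes.

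**Figure D1:**
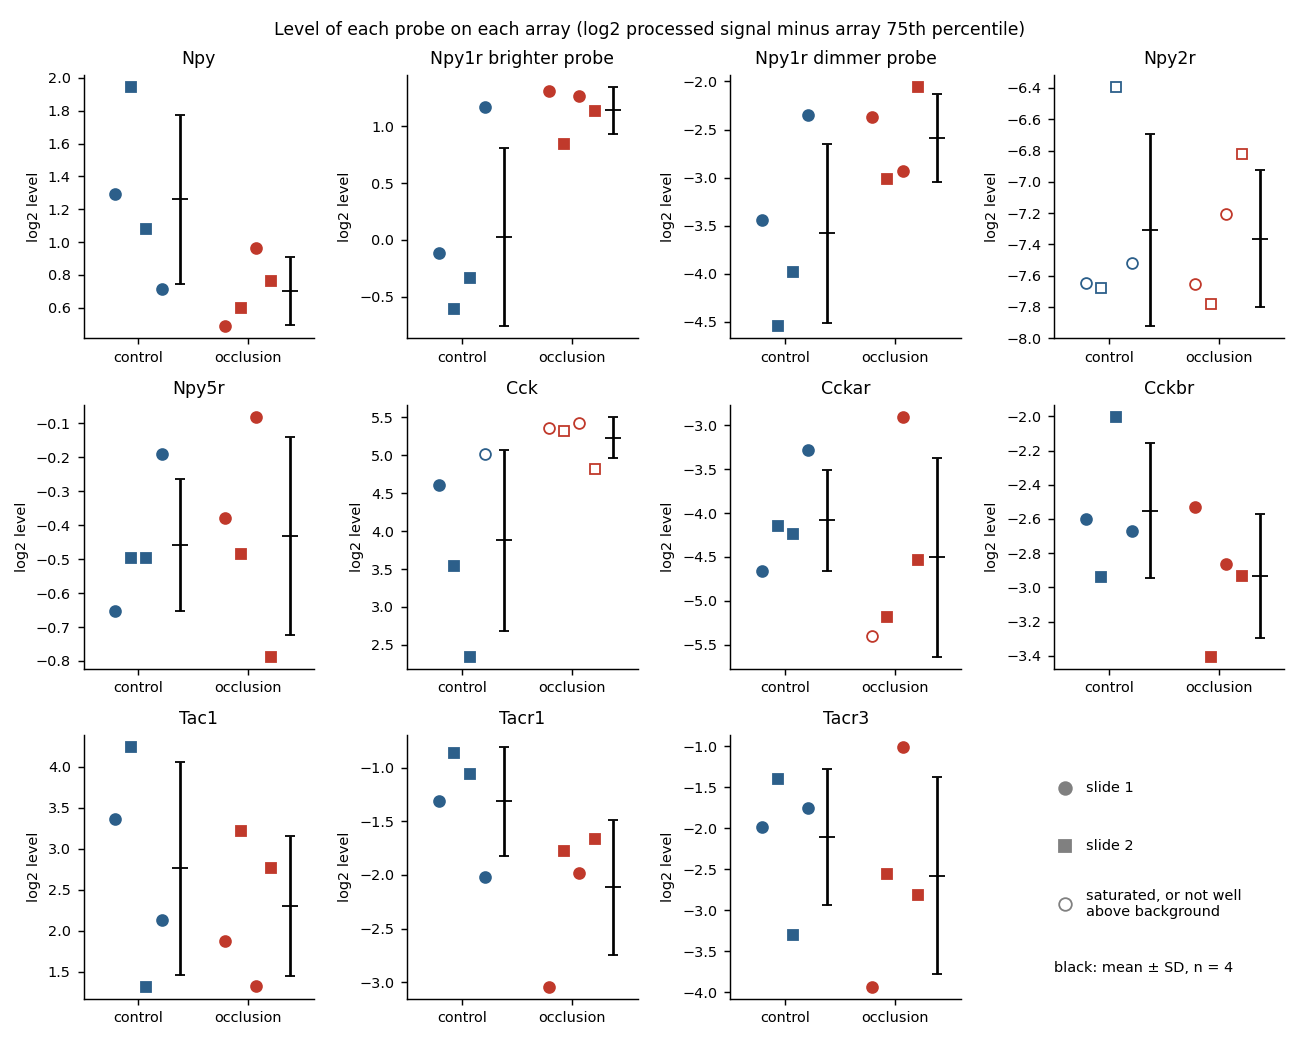
Level of each member probe on every array (log2 processed signal minus the array's 75th percentile), by group, with the marker shape giving the slide and open symbols the arrays where the probe was saturated or not well above background. Control 4 sits with the occlusion arrays for Npy1r (1.17 on the brighter probe) and Cck (5.02), and the Tac1 values run from 1.33 to 3.22 after occlusion and from 1.31 to 4.24 in controls.

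Npy, the precursor of neuropeptide Y, was lower after occlusion, though the groups overlapped. Its levels were 0.49, 0.60, 0.96 and 0.76 on occlusion arrays 1 to 4 and 1.30, 1.95, 1.08 and 0.71 on control arrays 1 to 4. All 4 occlusion arrays lay below the control mean, while control 4 lay below occlusion 3 and 4. The means were 0.70 ± 0.21 (SD, n = 4) and 1.26 ± 0.52 (SD, n = 4). The difference was -0.56 with an SE of 0.25 (95% interval -1.13 to 0.02), an adjusted p of 0.459 and an unadjusted p of 0.0566 in limma. It was -0.28 within slide 1 and -0.83 within slide 2, and -0.33 without control 2, the highest array. The 10 spots of the probe on an array had an SD of 0.04 to 0.13, against 0.47 between arrays.

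Npy1r encodes the Y1 receptor, which is found mainly on the receiving side of synapses. It was higher after occlusion on both probes. On the brighter probe the levels were 1.31, 0.84, 1.27 and 1.13 on occlusion arrays 1 to 4 and -0.12, -0.61, -0.34 and 1.17 on control arrays 1 to 4. The 4 occlusion arrays lay close together, 3 controls lay well below them, and control 4 lay among them. The means were 1.14 ± 0.21 (SD, n = 4) and 0.03 ± 0.79 (SD, n = 4), a difference of 1.11 with an SE of 0.36 (95% interval 0.30 to 1.93) or 2.16-fold. The adjusted p was 0.403 and the unadjusted p 0.0134 in limma, the latter ranking 870 among all probes. Within slides the difference was 0.77 and 1.46, and without control 4 it was 1.49 (adjusted p 0.139 in limma).

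On the dimmer Npy1r probe the levels were -2.37, -3.01, -2.93 and -2.05 on occlusion arrays 1 to 4 and -3.44, -4.55, -3.98 and -2.35 on control arrays 1 to 4. Control 2, control 3 and control 1 were the 3 lowest arrays, in the same order as on the brighter probe, and control 4 was again among the occlusion arrays. The difference was 0.99 with an SE of 0.45 (95% interval -0.04 to 2.02, adjusted p 0.460 in limma). It was 0.25 within slide 1 and 1.73 within slide 2. These probes read 1 gene in the same 8 RNA samples and are not independent samples of the animals.

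Npy5r, the Y5 receptor gene next to Npy1r on chromosome 16, was among the steadiest members. Its levels ran from -0.79 to -0.08 over all 8 arrays, with means of -0.43 ± 0.29 (SD, n = 4) after occlusion and -0.46 ± 0.19 (SD, n = 4) in controls. The difference was 0.03 with an SE of 0.17 (adjusted p 0.973 in limma), with a 95% interval of -0.37 to 0.42, which overlaps the 0.30 to 1.93 of the brighter Npy1r probe. Control 4 was the highest control for Npy5r (-0.19), as for Npy1r, and the other controls lay between -0.65 and -0.50. The difference between these neighbours was not tested.

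Npy2r, the Y2 receptor that acts largely as a presynaptic autoreceptor, was not well above background on any of the 8 arrays. Its processed signal was 7.18 to 22.9, below the lowest signal of a probe well above background on each array, which was 26.0 to 49.0. No difference between the groups is given for it.

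Cck, the cholecystokinin precursor gene, was the brightest member and was saturated on 5 arrays. Its recorded levels were 5.36, 5.32, 5.42 and 4.82 on occlusion arrays 1 to 4 and 4.61, 3.54, 2.35 and 5.02 on control arrays 1 to 4. Of its 10 spots, 10, 10, 5 and 10 were saturated on occlusion arrays 1 to 4 and 10 on control 4, and 0 on the other controls. A saturated value is a lower limit, so the order of those 5 arrays is not known, while control 1, 2 and 3 were measured below all of them.

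The recorded Cck means were 5.23 ± 0.27 (SD, n = 4) and 3.88 ± 1.20 (SD, n = 4). The recorded difference was 1.36 with an SE of 0.53 (95% interval 0.15 to 2.57, adjusted p 0.424, unadjusted p 0.0323 in limma). With control 4 saturated too, the size of the difference has no bound in either direction. Within slide 1 the recorded difference was 0.58 and within slide 2 it was 2.13. Of the 4 arrays on slide 1, 3 were saturated, control 4 among them, while both controls on slide 2 were not, so this contrast between slides also rests on lower limits. Its test gave an unadjusted p of 0.0269 and an adjusted p of 0.959 in limma, where 4.31% of all probes had an unadjusted p below 0.05. Without control 3, the lowest array, the recorded difference was 0.85, and without control 4 it was 1.74 (adjusted p 0.189 in limma).

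The receptors for cholecystokinin were dim. Cckar, the CCK1 receptor known from the gut and vagus nerve and from few brain nuclei, had levels of -5.40, -5.18, -2.90 and -4.54 on occlusion arrays 1 to 4 and -4.66, -4.15, -4.23 and -3.29 on control arrays 1 to 4. Occlusion 3 was the highest array and occlusion 1, where only 4 of 10 spots were well above background, the lowest. The difference was -0.42 with an SE of 0.55 (adjusted p 0.804 in limma), and it was -0.96 without occlusion 3 and -0.12 without occlusion 1.

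Cckbr, the CCK2 receptor that prevails in the brain, had levels of -2.53, -3.41, -2.86 and -2.94 on occlusion arrays 1 to 4 and -2.60, -2.94, -2.002 and -2.67 on control arrays 1 to 4. The groups overlapped, with control 3 the highest array and occlusion 2 the lowest. The difference was -0.38 with an SE of 0.24 (95% interval -0.94 to 0.17, adjusted p 0.570 in limma). It was -0.062 within slide 1 and -0.70 within slide 2, -0.20 without control 3 and -0.22 without occlusion 2.

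Tac1, the precursor of substance P and neurokinin A, varied widely within both groups. Its levels were 1.87, 3.22, 1.33 and 2.77 on occlusion arrays 1 to 4 and 3.36, 4.24, 1.31 and 2.13 on control arrays 1 to 4. Each group held arrays near the bottom of the range, occlusion 3 and control 3, and control 2 was the highest. The means were 2.30 ± 0.85 (SD, n = 4) and 2.76 ± 1.30 (SD, n = 4), a difference of -0.46 with an SE of 0.67 (95% interval -1.99 to 1.06, adjusted p 0.827 in limma). Its sign turned between slides, from -1.14 on slide 1 to 0.22 on slide 2, and without control 2 it was 0.029. The SD among the 10 spots was 0.02 to 0.13, against 1.05 between arrays, so repeat spots of an array agreed far more closely than animals did.

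Tacr1, the NK1 receptor for substance P, was lower after occlusion by similar amounts on both slides. Its levels were -3.04, -1.77, -1.98 and -1.66 on occlusion arrays 1 to 4 and -1.31, -0.86, -1.06 and -2.02 on control arrays 1 to 4. All 4 occlusion arrays lay below the control mean, and the groups overlapped through control 4. The means were -2.12 ± 0.63 (SD, n = 4) and -1.31 ± 0.51 (SD, n = 4). The difference was -0.80 with an SE of 0.35 (95% interval -1.61 to 0.01), a 1.75-fold lower level, with an adjusted p of 0.453 and an unadjusted p of 0.0518 in limma. It was -0.85 within slide 1 and -0.76 within slide 2, and -0.49 without occlusion 1, the lowest array.

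Tacr3, the NK3 receptor for neurokinin B, had levels of -3.94, -2.56, -1.01 and -2.81 on occlusion arrays 1 to 4 and -1.98, -1.40, -3.30 and -1.75 on control arrays 1 to 4. Occlusion arrays were both the highest (occlusion 3) and the lowest (occlusion 1). The difference was -0.47 with an SE of 0.63 (95% interval -1.91 to 0.97, adjusted p 0.811 in limma). It was -0.018 without occlusion 1 and -0.99 without occlusion 3.

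**Figure D2:**
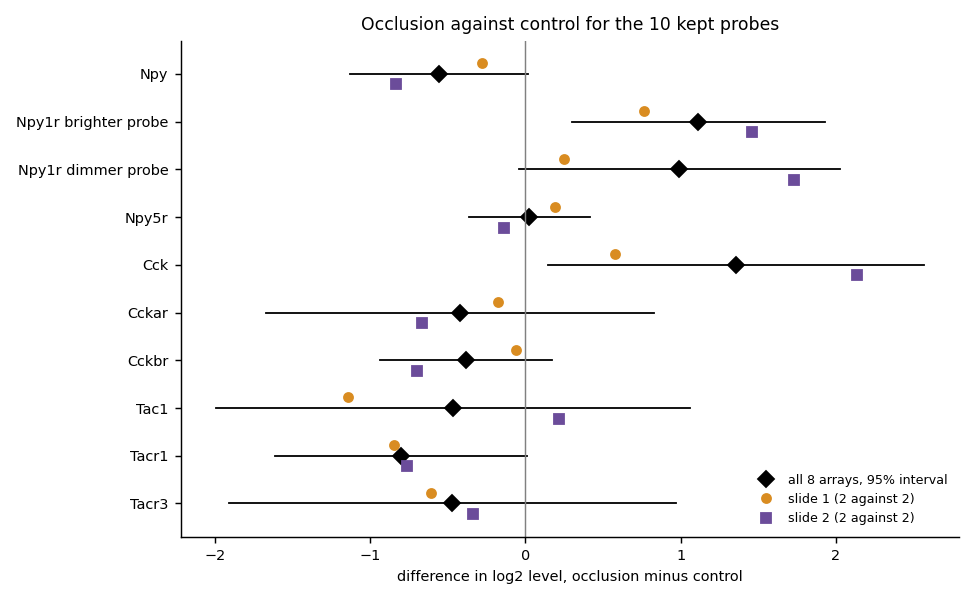
Difference between occlusion and control (log2) for each member probe with its 95% interval from the limma fit, and the difference within each slide as separate markers. The intervals of the brighter Npy1r probe (0.30 to 1.93) and Cck (0.15 to 2.57, partly saturated) lie above 0, those of Npy and Tacr1 end just past 0, and the Tac1 slides lie on opposite sides of 0.

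**Figure D3:**
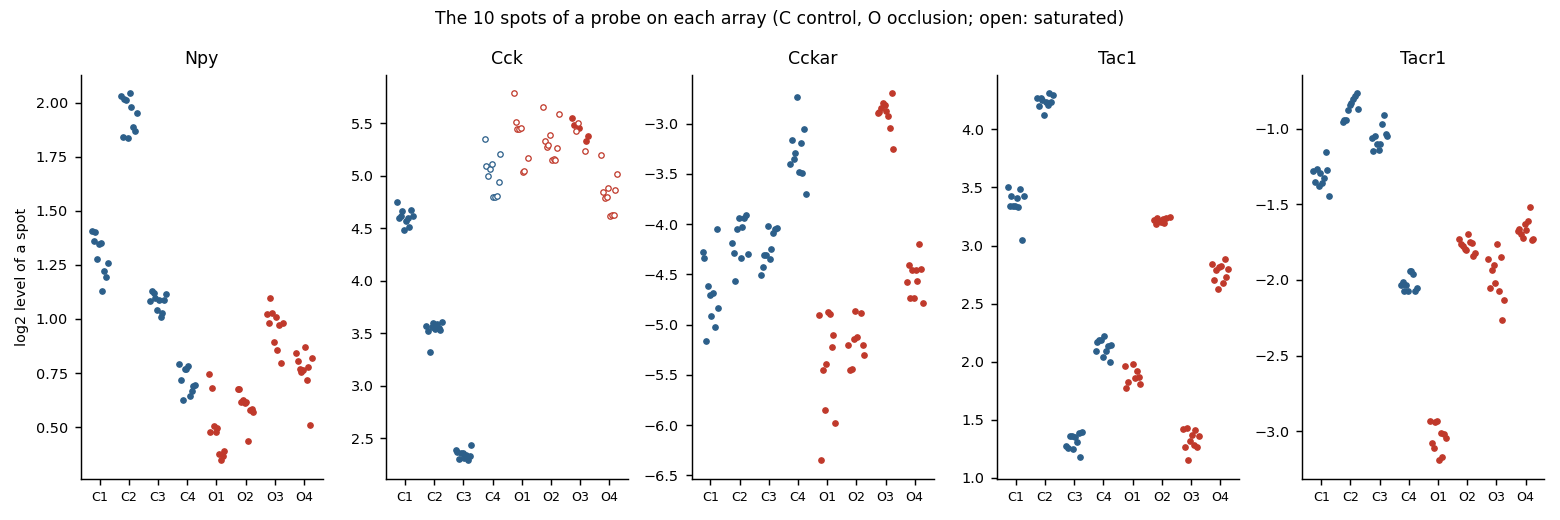
Level (log2) of each of the 10 replicate spots per array for the 5 members printed 10 times. Spots of an array lie close together compared with the distance between arrays for Npy, Tac1 and Tacr1, and are widest for the dim Cckar, where their SD reached 0.51.

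Control 4 lay nearer the occlusion arrays than the other controls for several members. Leaving each array out in turn, the number of the 9 member genes with an unadjusted p below 0.05 in limma ran from 1 to 4, with 4 when control 4 was left out, and 0 passed the adjusted threshold each time. The share of all probes at that unadjusted p was then 14.6%. Leaving out control 2, occlusion 1 or occlusion 2 left 1 member gene, beside 7.56%, 7.52% and 8.87% of all probes. With the slide as a block, 3 of the 9 member genes (Npy1r, Cck and Tacr1) had an unadjusted p below 0.05 in limma, beside 14.2% of all probes, and 0 were called. Npy joined these genes with normexp background correction (4 of 9, beside 11% of all probes) and with a trended and robust variance (4 of 9, beside 11.7%). It also did with the filter on all 8 arrays (4 of 8, beside 12.2%). Slide 1 alone gave 1 of 9, beside 6.46%, and slide 2 alone 3 of 9, beside 10.1%. Each of these settings called 0 members.

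The levels of marker genes differed between the arrays alongside some members. The mean level of 7 thalamic relay neuron markers, all 7 of them higher after occlusion by a median of 0.70 and 0 of them called, was 1.34, 1.17, 0.81 and 1.05 on occlusion arrays 1 to 4 and 0.68, -0.12, -0.51 and 0.96 on control arrays 1 to 4. Control 1, 2 and 3 were the 3 lowest arrays for this mean, for Cck and for Npy1r, and control 4 was the highest control for all of them. Of these 7 markers 4 had an unadjusted p below 0.05 in limma, beside 11.1% of all probes. Saturation touched 2 of the 7, Slc17a6 and Prkcd, on 4 arrays each. The median and the means of this list therefore rest partly on lower limits. The part of the relay markers in the Cck and Npy1r differences was not tested.

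Markers of the reticular nucleus and of GABA neurons were set beside Npy, which inhibitory neurons are known to express. Of 7 such markers 6 were lower after occlusion, with a median difference of -1.35, 0 called and 3 at an unadjusted p below 0.05 in limma, beside 11.1% of all probes. Their mean was -1.05, -1.92, 0.68 and -1.06 on occlusion arrays 1 to 4 and -0.13, -0.18, 2.02 and 0.27 on control arrays 1 to 4. This mean includes Dlx5, which was not well above background on occlusion 2 (-6.77), control 1 (-6.23) and control 2 (-7.59). Dlx5 was 1.96 on control 3, so the order of the arrays for the mean rests partly on a gene near background. The highest array was control 3 for this mean and control 2 for Npy, and occlusion 3 was the highest occlusion array for both. Their part in the Npy difference was not tested.

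For Tac1 the markers of the habenula were set beside it. The mean of 8 habenula markers, which include Pou4f1, Gpr151 and Chrnb4, was -0.88, -0.09, -3.36 and -0.44 on occlusion arrays 1 to 4 and 0.07, 0.60, -3.50 and -2.43 on control arrays 1 to 4. Ordered from lowest to highest, the arrays stood in the same order for this mean and for Tac1, apart from occlusion 1 and control 4, which changed places. Gpr151 ran from -6.32 on control 3, where it was not well above background, to 1.31 on control 2. The group means of the habenula list were -1.19 and -1.31, with 4 markers higher and 4 lower after occlusion. Its part in the Tac1 values was not tested.

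Occlusion 3 and control 4 had the highest means of hypothalamic markers, though single markers differed. The mean of 7 hypothalamic peptide and transcription factor genes was -2.34, -2.81, 1.12 and -0.47 on occlusion arrays 1 to 4 and -1.67, -2.43, -1.19 and 0.63 on control arrays 1 to 4. Occlusion 3 was the highest array for this mean and for Cckar and Tacr3, and control 4 was the next highest for the mean and for Cckar. For Tacr3 the next highest was control 2 (-1.40), where the mean was lower than on every array but occlusion 2. Among single markers, Avp was highest on occlusion 3 (5.44) and control 4 (5.06), Pomc on occlusion 4 (4.88) and Agrp on control 3 (-2.63). Pmch was well above background on occlusion 3, but its reading there was dropped as an outlier, and the gene was left out of the mean. It was 5.02 on control 4 and 4.68 on occlusion 4. Pomc was saturated on 1 array, Avp on 2 and Pmch on 3, so the highest of these values may be lower limits. Saturation touched 4 of the 8 hypothalamic genes tested. The striatal markers, which would accompany Tac1 neurons of the striatum, stayed between -2.37 and -1.55 on all arrays. Markers of interneurons, where Npy and Cck are also known, had means of -0.21 to 0.26 after occlusion and -0.83 to 0.20 in controls. Means were -3.12 to -2.20 and -3.19 to -1.28 for cortex and hippocampus, -1.84 to -1.13 and -2.43 to -1.04 for choroid plexus, and 3.20 to 3.86 and 3.53 to 4.15 for oligodendrocytes, occlusion before control. The part of these tissues in the member values was not tested.

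Relatives of these peptides and receptors showed no called difference. Of 8 listed, 7 were on the array by name and 5 were tested, 2 higher and 3 lower, with 0 called and a median difference of -0.11. Pyy, the gut hormone peptide YY, differed by -0.66 with an SE of 0.42, and Tacr2, the NK2 receptor, by -0.49 with an SE of 0.56. Tac4, the hemokinin gene, differed by 0.11 with an SE of 0.31. Tac3, the precursor of neurokinin B, was read on only 4 arrays after spots marked as outliers were left out: 2.87 on occlusion 1 and 0.89 on occlusion 3, against 0.07 on control 3 and 1.24 on control 4. Its difference was 1.23 with an SE of 0.80 (adjusted p 0.617 in limma). Ppy and Npy4r were too dim to be tested.

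Of the genes that process and store neuropeptides, 13 were tested, 9 higher and 4 lower, with 0 called and a median difference of 0.10. At an unadjusted p below 0.05 there was 1 of the 13, beside 11.1% of all probes. Pcsk2, the proprotein convertase 2 that cuts peptide precursors, had levels of 2.02, 1.89, 1.69 and 1.73 on occlusion arrays 1 to 4 and 1.43, 0.96, 0.53 and 1.67 on control arrays 1 to 4. The groups just failed to overlap, and the difference was 0.68 with an SE of 0.24 (adjusted p 0.403 in limma). Its other probe differed by 0.65. Tpst2, a tyrosine sulfotransferase of the kind that sulfates CCK, differed by 0.16 with an SE of 0.11. The granin genes Scg3 and Chga differed by -0.29 with an SE of 0.18 and by -0.32 with an SE of 0.21. That Scg3 probe had values on only 2 occlusion arrays and 4 control arrays, and its other probes differed by -0.14 and -0.03. The other Chga probe differed by -0.49. Saturation touched 6 of these 13 genes on at least 1 array.

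Of the peptidases that break down these peptides, 5 were tested, 1 higher and 4 lower, with 0 called and a median difference of -0.16. Mme, the neprilysin that cleaves substance P, differed by -0.69 with an SE of 0.48. Ace and Tpp2, peptidases for substance P and for CCK, differed by -0.16 with an SE of 0.31 and by -0.15 with an SE of 0.15. The other Ace probe differed the other way, by 0.11 with an SE of 0.27. Ece1, which cleaves substance P inside the cell, differed by 0.15 with an SE of 0.12, and by 0.17 and 0.37 on its other probes.

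Of the 21 listed genes for G proteins, phospholipase C and receptor desensitisation, 20 were tested, 11 higher and 9 lower, with 0 called and a median difference of 0.13. At an unadjusted p below 0.05 there were 2 of the 20, beside 11.1% of all probes. Gnao1, the alpha subunit of Go that NPY receptors can use, had levels of 2.99, 2.81, 3.07 and 2.91 on occlusion arrays 1 to 4 and 2.58, 2.23, 2.22 and 2.52 on control arrays 1 to 4. The groups did not overlap, and the difference was 0.56 with an SE of 0.12 (adjusted p 0.403 in limma), beside 0.52 for its other probe. Gnai3, the alpha subunit of an inhibitory G protein, differed by -0.33 with an SE of 0.15, and Plcb3, a phospholipase C, by -0.58 with an SE of 0.33. The groups were separate for 3 of these 20 genes, beside 6.71% of all probes.

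The genes whose centred profile over the 8 arrays lay nearest to each peptide gene were found by the root mean square distance on the log2 scale. For Npy they were Cdc2a (0.14), Plk2 (0.15) and Dkk3 (0.17), where the median distance of 6247 candidate probes was 0.60. For Cck they were Serinc2 and Npc1l1 (0.24 each) and Lef1 (0.25), where the median of 1778 candidates was 1.09; Lef1 is also on the relay marker list, and the Cck profile is limited by saturation. For Tac1 they were Sncg (0.23), Cd72 (0.31) and Bmp2 (0.33), where the median of 1888 candidates was 1.31. These distances describe 8 arrays and carry no test.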

How the data were processed

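Medial thalamus RNA of 4 occluded and 4 control rats was hybridised to Agilent arrays. The authors' scans were read with Feature Extraction 9.5.1.1, per the file headers, giving a background-subtracted processed intensity per spot with flags for background, saturation and outliers. The intensity is linear and not normalised between arrays. A further deposited table repeats this intensity with fewer digits and was an alternative. The design text names a reference design, but the files hold 1 channel.

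Control spots were left out, log2 intensity minus each array's 75th percentile was taken, outlier spots were dropped and the spots of a probe averaged. Saturated spots stayed at their value. The test took probes that 4 or more of the 8 arrays read well above background, with at least 2 values per group. Groups were compared with limma 3.58.1 in R 4.3.3 (moderated two-sided tests from eBayes, adjusted by Benjamini-Hochberg over 27159 probes, threshold 0.05). The procedure was first tested on simulated data in which probes varied independently, with no saturation and no slide effect. That simulation does not cover saturated probes, slide differences or probes that vary together. Where a gene had several probes, the one with the highest mean stood for it. The number of arrays limits the precision. Replicates were taken as separate animals, as the design text counts animals.

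The members, lists and named genes were chosen with earlier results of these data known. All members were named, in each pathway list the 2 genes at either end of the test statistic (1 of them is not reported here), and for each peptide gene the 3 nearest profiles among genes varying at least 50% as much. Other marker lists are given as means over genes read on every array. Alternatives were the normalisation (quantile, or the median of tested probes), normexp with offset 50, the filter, the variance model, the slide or replicate number as a block, each slide alone, the deposited table, the mean of a gene's probes and leaving out each array.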

Additional observations from a re-analysis of the deposited data

Results flagged for a closer look

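Of 22 groups of 4 arrays examined (11 member probes in each treatment group), 2 held an array whose distance from the nearest other array was large for the group's range; chance gives about 1 in 20. The Npy2r level of control 3 was -6.39, while the other controls lay between -7.68 and -7.52 (gap over range 0.873), and none of the arrays read this probe well above background. The recorded Cck level of occlusion 4 was 4.82, while the other occlusion arrays lay between 5.32 and 5.42 (gap over range 0.842), and all 10 spots of occlusion 4 were saturated. Its recorded signal is therefore a lower limit. Before the percentile was subtracted, the Cck signal was 63243 on occlusion 4 and 61671 to 67581 on the other occlusion arrays. The 75th percentile of occlusion 4, 2216, was the highest of all arrays, so this gap appeared only with the scaling.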

How the results depend on the processing

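Under 20 alternatives, 166 of 171 member values kept their direction and stayed on the same side of the threshold, and none passed it. The other 5 changed sign. The filters, the variance model and the slide and replicate blocks leave a member's difference as it was. Its direction could therefore not change there, and only its p could. The deposited table repeats the same intensity. On slide 2 alone Npy5r was -0.14 and Tac1 0.22. With each array left out in turn Npy5r ran from -0.092 to 0.14 and Tac1 from -0.95 to 0.029. The count of called probes was 0 in limma under every alternative but normexp, which gave 1 and no member (smallest adjusted p 0.0478). The smallest adjusted p of any member under any alternative was 0.139, for Npy1r without control 4. With the filter on all 8 arrays Cckar dropped out, and the mean of all probes could be taken only for Npy1r (1.05).

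With the replicate number as a replicate block, 0 probes were called and 2834 (10.4%) had an unadjusted p below 0.05 in limma. The member differences, 1.11 for Npy1r and 1.36 for Cck, were those of the fit without it, as each number held an array of each group. The unadjusted p in limma was then 0.0131 for the brighter Npy1r probe, 0.0051 for the dimmer (adjusted p 0.453 for both) and 0.0485 for Cck. The deviations of same-numbered arrays from their group means had correlations of 0.35, 0.51, -0.07 and -0.29. The best-matching control was the same-numbered one for occlusion 1 and 2, but control 4 for occlusion 3 and control 2 for occlusion 4. The numbers were therefore not taken to pair the animals. With the slide as a block 0 were called, 14.2% had an unadjusted p below 0.05 in limma, and those of Npy1r, Cck and Tacr1 were 0.0048, 0.0077 and 0.0125. Saturation limits Cck, and low signal limits Cckar and Npy2r.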
